A study of Canis lupus familiaris with 22 samples.

Results

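Cytosolic ribosomal protein genes were followed in canine invasive urothelial carcinoma (iUC) and normal canine bladder. A gene was taken when its symbol in the array's annotation was RPS or RPL with a number (with A, X or L after it where present), RPSA, RPLP0, RPLP1 or RPLP2, and when at least 1 probe set carried that symbol and no other. This gave 54 of 15115 genes, 21 of the small and 33 of the large ribosomal subunit, read by 111 probe sets. Another 75 probe sets with a ribosomal protein symbol carried several symbols and were left out. No probe set carried RPSA, RPS2, RPS6, RPL11, RPL18 or RPL31 as its only symbol, and these and several others were not analysed here.

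Expression was measured on Affymetrix Canine 2.0 arrays, 1 array for each sample, from 5 µg of RNA. The iUC group held 18 naturally occurring, high grade tumors sampled through a cystoscope before any therapy. The normal bladder group held 4 bladders of healthy dogs free of tumor, and the samples of each group are biological replicates. Breed, age and sex are not in the sample labels, and no sample was treated.

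The cytosolic ribosome reads messenger RNA with its small subunit and joins amino acids on its large subunit, and each subunit is a core of ribosomal RNA bound by ribosomal proteins. Nearly all of them are needed in equal numbers, and most of their messenger RNAs carry a terminal oligopyrimidine tract at the 5′ end, through which growth signals such as mTOR set their translation together. A few of these proteins also bind MDM2, the ligase that removes p53, when ribosome assembly is disturbed. Their messenger RNAs are among the most abundant of any dividing or resting cell.

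The deposited values are log2 values from which the authors subtracted each probe set's median over the 22 arrays, so that a value gives the distance of a sample from the middle of the 22 and not how strongly a gene is expressed. The probe sets of a gene were averaged. No filter on low values was applied, and all 54 genes entered each test. Levels are compared between samples and not between genes. Tumors and normal bladders were compared with limma across all 15115 genes, and p-values were adjusted with the Benjamini-Hochberg method over all of them. A gene passed the test where its adjusted p was at most 0.05, and was also counted at the study's criterion of that p with a fold change of 2 or more. In tissue samples, fewer cells of a type and less RNA per cell cannot be told apart.

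The iUC arrays did not behave alike, and the ribosomal protein genes showed it. The AFFX-r2-Tag probe sets of the array are 17 controls designed to match no transcript, and their mean was between 0.28 and 0.46 on 7 iUC arrays (replicates 3, 4, 5, 6, 7, 13 and 18), between -0.13 and 0.13 on the other 11, and between -0.21 and -0.077 on the normal arrays. The cut was set at 0.2. The mean over the 54 ribosomal protein genes was between -0.67 and -0.28 on the 7 iUC arrays of high Tag signal, between -0.055 and 0.30 on the 11 of low Tag signal, and 0.14, 0.25, 0.21 and 0.15 on the 4 normal arrays. No array of high Tag signal reached the lowest array of low Tag signal. Probe sets of the GAPDH and actin controls were between -1.13 and -0.58, between -0.080 and 0.25, and between -0.34 and 0.38 in the same order of arrays, and those for elongation factor 1 alpha between -0.59 and -0.36, between -0.11 and 0.098, and between 0.045 and 0.10. The labels do not name these 7 arrays as a group, so no gene was tested between them and the others. They are given apart below, and each comparison is given with and without them. The part of the array signal in the differences was not tested.

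**Figure D1:**
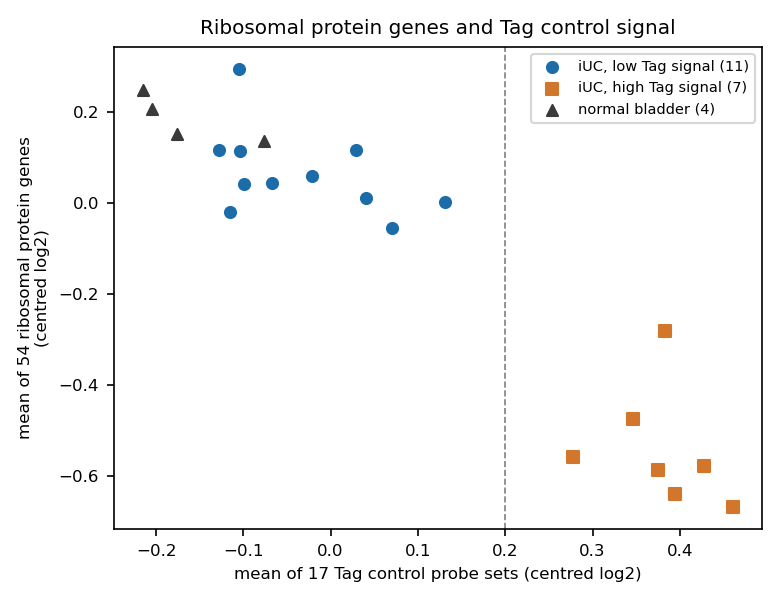
Each point is 1 array, with the mean of 17 Tag control probe sets on the x axis and the mean of 54 ribosomal protein genes on the y axis, both as centred log2 values. The 7 iUC arrays right of the dashed line at 0.2 lie between -0.67 and -0.28 on the y axis, below the other 11 iUC arrays and the 4 normal arrays.

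The cell makeup of the samples differed too. The mean over 12 smooth muscle genes was between -0.69 and 1.5 in iUC, against 4.11, 3.03, 4.38 and 4.72 in normal bladder replicates 1 to 4, and 10 of the 12 genes were lower in iUC at 2-fold or more. Of 12 measured urothelial genes 6 were higher in iUC, and of 9 measured genes of dividing cells 8 were higher. The urothelial mean was between -1.49 and 0.80 in iUC, against -0.76, -0.22, -1.88 and -3.35 in normal bladder. Urothelial and dividing cell genes also differed between the iUC arrays. The urothelial mean averaged -0.43 on the 7 arrays of high Tag signal and 0.36 on the 11 of low Tag signal, with 11 of 12 genes lower on the 7, and the mean of the dividing cell genes averaged -0.37 and 0.72, with 9 of 9 genes lower. The mean of the bacterial and phage spike-in controls was between 0.58 and 1.13 in normal bladder. It was between -1.06 and 1.14 on the 11 arrays and between -1.45 and -0.24 on the 7. The 3′ minus 5′ difference of the control probe sets, a sign of RNA quality, was between -0.039 and 0.30 on the 7 arrays and between -0.26 and 0.20 on the 11. In normal bladder replicates 1 to 4 that difference was -0.28, 0.56, -0.0092 and -0.23. Of 12 measures set against the mean of the ribosomal protein genes among the 7 arrays, it followed that mean most closely (r = -0.78, rho = -0.96), while among the 11 it had r = -0.16 (rho = 0.091). The part of cell makeup and RNA quality in the values of the ribosomal protein genes was not tested. The labels carry 1 of 2 endings, the same for every iUC sample and normal bladder replicate 1 but another for the remaining 3 normal samples. When that ending entered the fit as a block, 0 of the 54 genes passed the test of the 18 iUC arrays (against 3.09% of all genes), and 0 passed that of the 11 (against 4.31%). With the block the median log2 fold change of the ribosomal protein genes was -0.34 with 18 iUC arrays, with 48 of 54 below 0, and -0.069 with 11, with 41 below 0.

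With all 18 iUC arrays, most ribosomal protein genes had lower values in iUC than in normal bladder, by small amounts, and few of them passed the test. The log2 fold change (iUC minus normal) was below 0 for 48 of the 54 genes, against 43.3% of all genes, and its median was -0.37, against 0.08 over all genes. This direction turned when the Tag mean entered the fit as a covariate, with a median of 0.074 and 16 of 54 genes below 0. At an adjusted p of 0.05 or below, 8 genes were lower in iUC (14.8% of the 54), where 17.5% of all genes were lower, and 3 were higher (5.56%), where 18.2% of all genes were higher. At the study's criterion only RPL36 was lower (1.85%, against 8.64% of all genes) and none was higher (against 3.68%). At an unadjusted p of 0.05 or below, 21 were lower (38.9%, against 21.7% of all genes) and 3 were higher (5.56%, against 27% of all genes). The share of ribosomal protein genes that passed in either direction, 20.4%, lay below the 35.7% of all genes. The 8 lower genes were RPL6, RPL9, RPL12, RPL26, RPL36, RPLP1, RPS18 and RPS20, and the 3 higher genes were RPL3L, RPL10L and RPL24. Without normal bladder replicate 3, and likewise without replicate 4, 5 genes passed in place of 11, and without replicate 2, 6 did. The share of all genes that passed fell as well, from 35.7% to 19.6% without replicate 3 or replicate 4, and to 27% without replicate 2. RPL9, RPL12, RPL26, RPL36 and RPLP1 passed whichever normal sample was left out. The 43 genes that did not pass had log2 fold changes from -0.90 to 0.14.

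Without the 7 arrays of high Tag signal, the 11 remaining iUC arrays lay much closer to normal bladder. The median log2 fold change of the ribosomal protein genes was -0.11, against 0.06 over all genes, and 37 of the 54 were below 0, against 41.8% of all genes. Of the 54 genes, 42 (77.8%) had a log2 fold change within 0.25 of 0 in either direction, against 47.5% of all genes. At an adjusted p of 0.05 or below, 12 were lower in iUC (22.2%, against 16.6% of all genes) and 2 were higher (3.7%, against 21.1%). In either direction this was 25.9%, against 37.7% of all genes. The 40 genes that did not pass had log2 fold changes from -0.46 to 0.22. RPL36 alone was lower at 2-fold or more (1.85%, against 5.96% of all genes) and none was higher (against 5.23%). The lower genes were RPL5, RPL6, RPL7, RPL9, RPL12, RPL13A, RPL26, RPL36, RPLP1, RPS13, RPS20 and RPS23, and the higher ones RPL8 and RPL10L. The 2 comparisons share the normal samples and 11 iUC arrays, and 8 genes passed in both, which is 8 of 11 in one and 8 of 14 in the other. Without normal bladder replicate 2, 7 genes passed in place of 14, and without replicate 3 or replicate 4, 5 did. The share of all genes that passed fell as well, from 37.7% to 32.8% without replicate 2, 24.4% without replicate 3 and 24.5% without replicate 4. RPL9, RPL12 and RPL36 passed whichever normal sample was left out. When each array was shifted to the same 75th percentile, the median of all genes moved to 0.20 and that of the ribosomal protein genes to 0.03, so that 21 of the 54 were below 0. The median of the ribosomal protein genes minus that of all genes was -0.17 with 11 iUC arrays and -0.10 where the label ending was blocked. With all 18 it was -0.45, and it was -0.31 with quantile normalization, -0.29 with array weights and 0.064 with the Tag covariate.

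**Figure D2:**
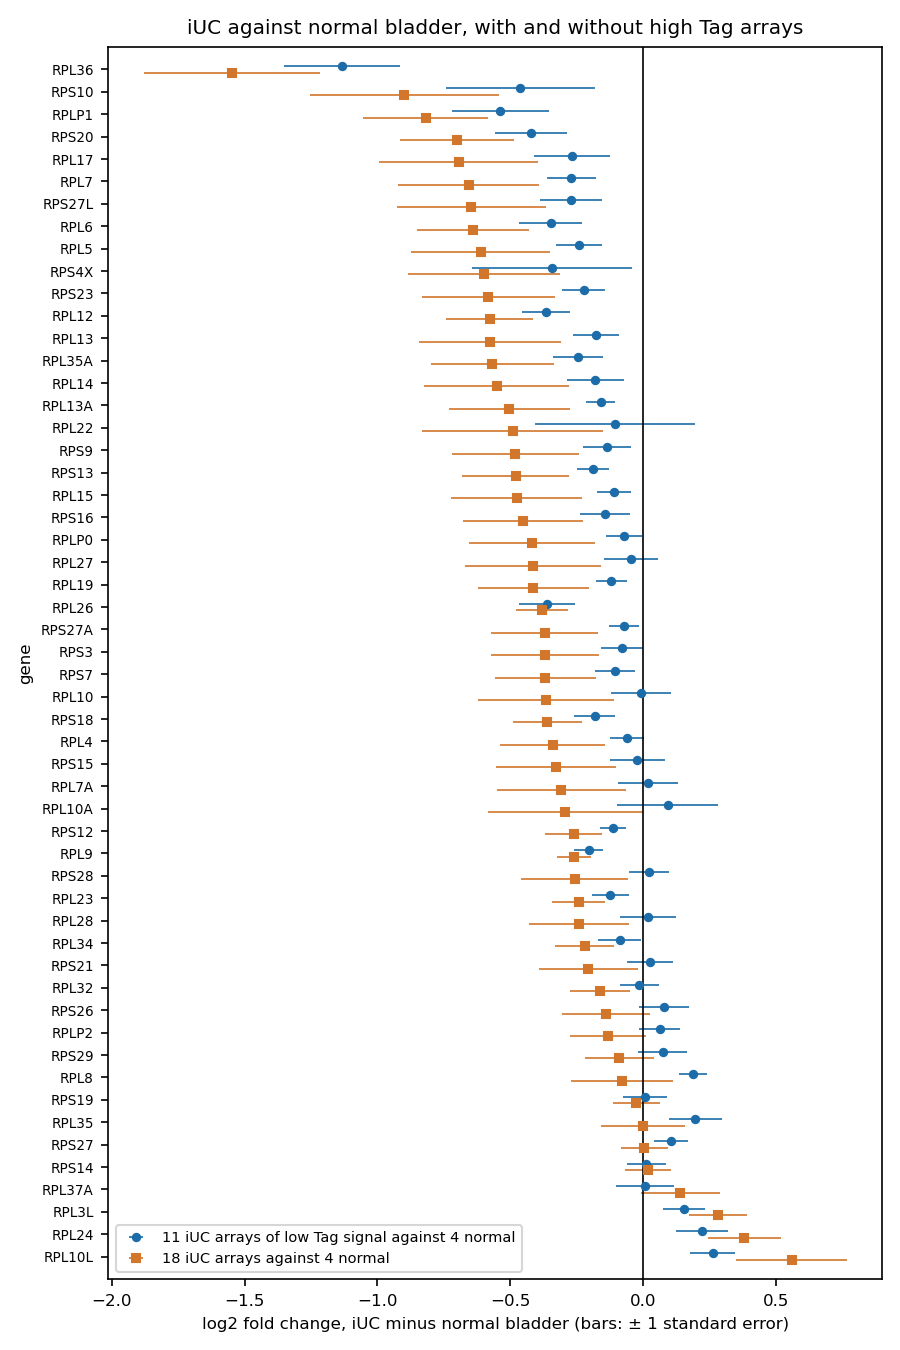
Log2 fold change (iUC minus normal bladder, x axis) of each of the 54 ribosomal protein genes with bars of 1 standard error, for the 11 iUC arrays of low Tag signal (circles) and for all 18 (squares). With the 18 arrays 48 genes lie left of 0, and with the 11 arrays 42 lie within 0.25 of it. RPL36 lies farthest left in both.

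The plot of all values by array shows the 7 arrays of high Tag signal standing apart. Averages on the 7 arrays of high Tag signal were below those on the other 11 iUC arrays for 49 of the 54 genes, against 7690 of all 15115 genes, and the median difference was -0.72, against -0.01 over all genes. For 33 genes (61.1%) every array of high Tag signal was below every array of low Tag signal, which held for 12.8% of all genes. Only RPL10L was above on every such array (1.85%, against 15.9% of all genes). The largest falls of the mean were in RPS10, by 1.12, RPL17, by 1.10, and RPL36, by 1.06 on the log2 scale. RPL24, RPL37A, RPL3L and RPS14 averaged higher on the arrays of high Tag signal, as did RPL10L, by 0.41, 0.34, 0.33, 0.02 and 0.77. The small and the large subunit did not part: the median difference was -0.72 over the 21 small subunit genes and -0.75 over the 33 large subunit genes.

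**Figure D3:**
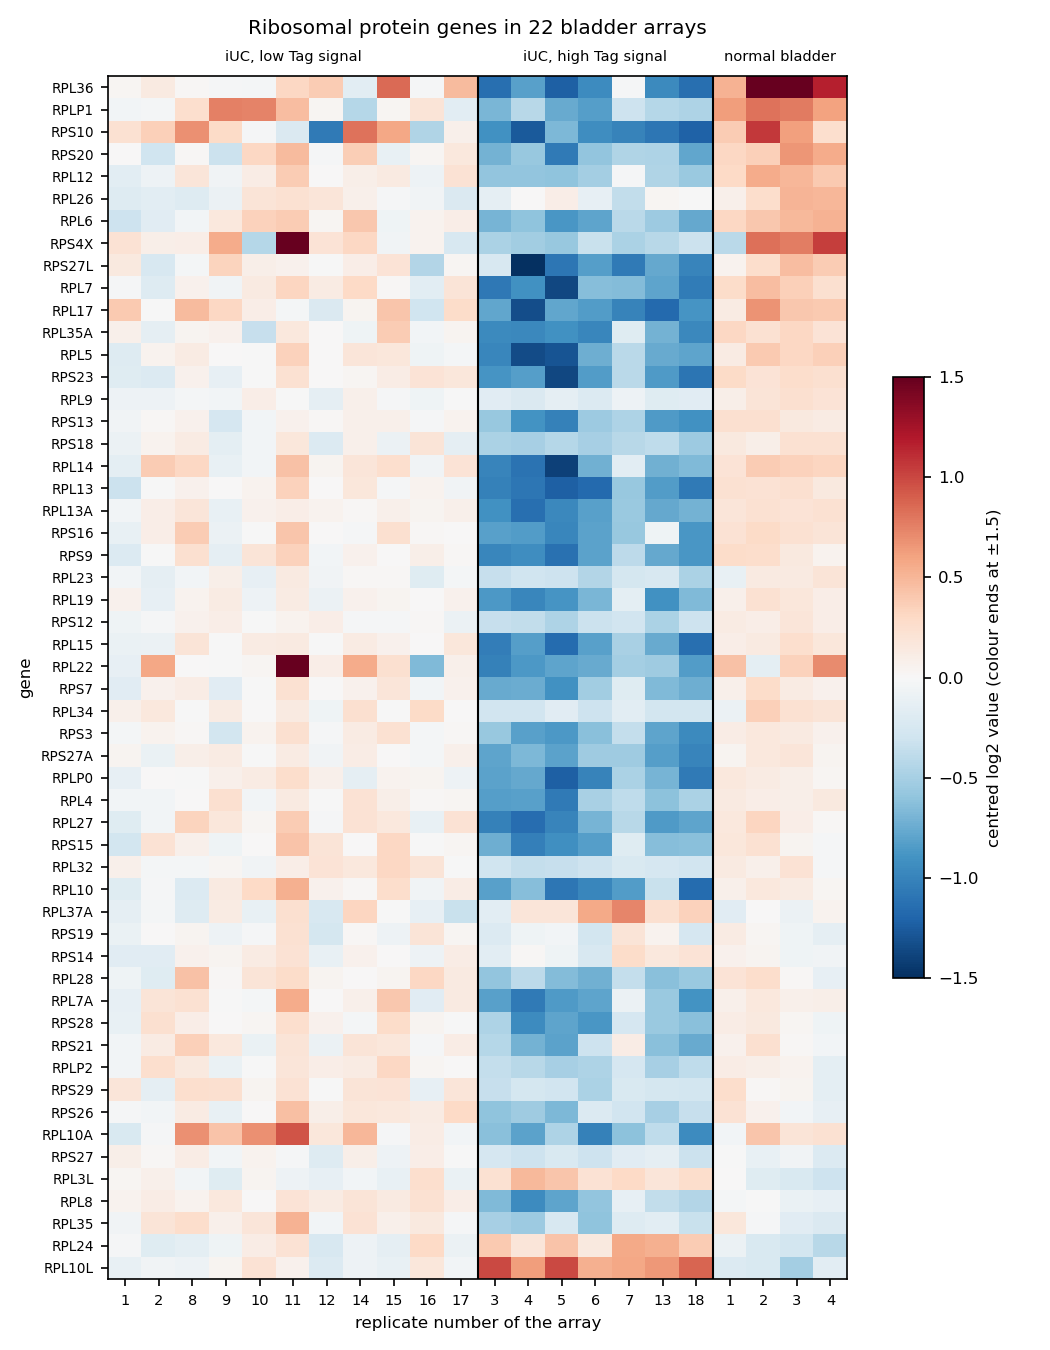
Centred log2 value of each of the 54 ribosomal protein genes (rows) in each of the 22 arrays (columns, by replicate number), with 11 iUC arrays of low Tag signal, 7 of high Tag signal and 4 normal bladders from left to right. Blue is below and red above the middle sample, and 49 of the 54 rows are on average lower in the 7 columns of high Tag signal.

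Among the 11 iUC arrays of low Tag signal the ribosomal protein genes varied little. The SD across these arrays had a median of 0.15 over the 54 genes and 0.21 over all genes, and 43 of the 54 were below the median gene. Across the 7 arrays of high Tag signal the medians were 0.21 and 0.18, and across the 4 normal samples 0.10 and 0.24. RPS12, of the small subunit, varied least across the 11 arrays, with an SD of 0.062. RPL22, RPS10 and RPS4X varied most, with SDs of 0.59, 0.54 and 0.51. RPL22 and RPS4X were both highest in iUC replicate 11, at 1.71 and 1.54, and this tumor also had the highest mean over the ribosomal protein genes among all iUC arrays (0.30). Pairs of ribosomal protein genes correlated with a median r of 0.27 across the 11 arrays of low Tag signal and 0.41 across the 7 of high Tag signal, against 0.02 and 0.03 over all pairs of genes. Across all 18 iUC arrays the median r was 0.81, where the points fall into the 2 sets of arrays. These correlations are descriptions, and the arrays share their scaling. RPL5 followed the mean of the other ribosomal protein genes most closely across the 11 arrays (r = 0.92), with RPL12 (0.86) and RPL35 (0.84) after it, while RPL3L ran against it (r = -0.32).

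The acidic stalk of the large subunit calls elongation factors to the ribosome. It is built from RPLP1 and RPLP2 on the base protein RPLP0, beside RPL12. RPLP1 and RPL12 were lower in iUC, and RPLP0, RPLP2 and RPL10 did not pass in either comparison. RPLP1 had values from -0.42 to 0.76 (median 0.03) on the iUC arrays of low Tag signal, from -0.83 to -0.31 (median -0.46) on those of high Tag signal, and 0.62, 0.82, 0.78 and 0.60 in normal bladder. Every array of high Tag signal was below every normal array, while 2 tumors of low Tag signal reached normal values. The log2 fold change of RPLP1 was -0.82 with 18 iUC arrays (standard error 0.23, adjusted p = 0.0109 from limma) and -0.54 with 11 (standard error 0.18, adjusted p = 0.031). With 11 iUC arrays RPLP1 passed in 1 of the 4 fits without a normal sample, with adjusted p-values from 0.0412 to 0.0878.

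RPL12 had values from -0.16 to 0.38 (median 0.08) on the iUC arrays of low Tag signal, from -0.61 to -0.014 (median -0.55) on those of high Tag signal, and 0.30, 0.56, 0.50 and 0.39 in normal bladder. Only the highest tumor reached the lowest normal sample. RPL12 had a log2 fold change of -0.58 (standard error 0.16, adjusted p = 0.0105 from limma) with 18 iUC arrays and -0.37 (standard error 0.09, adjusted p = 0.0063) with 11. It was read by 2 probe sets. One averaged 0.0028 and -0.00013 on the iUC arrays of low and high Tag signal, against -0.0045, 0.53, 0.35 and 0.19 in normal bladder. The other averaged 0.13 and -0.95, against 0.59, 0.58, 0.64 and 0.59. For the 11 iUC arrays their log2 fold changes were -0.26 and -0.47. RPLP2, the partner of RPLP1, had a log2 fold change of -0.13 (adjusted p = 0.46) with 18 iUC arrays and 0.06 (adjusted p = 0.55) with 11. RPLP0 had -0.42 (adjusted p = 0.16) and -0.07 (adjusted p = 0.43). The difference between RPLP1 or RPL12 and their partners was not tested.

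Around the exit of the tunnel through which the new protein leaves, RPL17, RPL19, RPL22, RPL26 and RPL35 were measured, and RPL26 alone passed. RPL26 also binds the messenger RNA of p53 in human cells. It had values from -0.22 to 0.23 (median -0.051) on the iUC arrays of low Tag signal, from -0.37 to 0.10 (median near 0) on those of high Tag signal, and 0.080, 0.27, 0.51 and 0.50 in normal bladder. The iUC arrays of both kinds overlapped, and normal bladder replicate 1 fell among them. For RPL26 the log2 fold change was -0.38 (standard error 0.098, adjusted p = 0.0055 from limma) with 18 iUC arrays and -0.36 (standard error 0.10, adjusted p = 0.0143) with 11. The single probe set of RPL26 thus gave nearly the same value with and without the arrays of high Tag signal. With 11 iUC arrays and without normal bladder replicates in turn, it passed in 2 of 4 fits.

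RPL17, the protein that had the second largest fall between the arrays of high and low Tag signal, had a log2 fold change of -0.69 (adjusted p = 0.071) with 18 iUC arrays and -0.27 (adjusted p = 0.15) with 11. RPL35 lay at the other end of the tunnel group, with -0.00071 (adjusted p = 0.997) and 0.20 (adjusted p = 0.13). From the probe set of RPL35 that is not named for shared matches, the log2 fold change with 18 iUC arrays was 0.33 (adjusted p = 0.0184), so its direction turned with the probe sets used.

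RPL5 joins 5S ribosomal RNA and RPL11 in the particle that binds MDM2. It had values from -0.20 to 0.35 (median 0.0054) on the iUC arrays of low Tag signal, from -1.34 to -0.41 (median -0.79) on those of high Tag signal, and 0.12, 0.40, 0.31 and 0.35 in normal bladder. The arrays of high Tag signal were below all others, and the tumors of low Tag signal overlapped normal bladder. For RPL5 the log2 fold change was -0.61 (adjusted p = 0.070 from limma) with 18 iUC arrays and -0.24 (standard error 0.086, adjusted p = 0.040) with 11, and with 11 it passed in 1 of the 4 fits without a normal sample. Among the other measured proteins that can bind MDM2 (RPL23, RPS3, RPS7, RPS14, RPS27, RPS27A and RPS27L, besides RPL26), none passed in either comparison. RPS14 had a log2 fold change of 0.02 (adjusted p = 0.87) with 18 iUC arrays and 0.01 (adjusted p = 0.91) with 11, and RPS27 had 0.0050 (adjusted p = 0.97) and 0.11 (adjusted p = 0.20).

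In the head of the small subunit and along the path of the messenger RNA, RPS3, RPS10, RPS15, RPS20, RPS26 and RPS28 were measured, and RPS20 passed. RPS10 and RPS20 lie near each other in the head and are marked with ubiquitin when ribosomes collide. RPS20 had values from -0.32 to 0.47 (median 0.016) on the iUC arrays of low Tag signal, from -1.06 to -0.46 (median -0.59) on those of high Tag signal, and 0.32, 0.36, 0.66 and 0.56 in normal bladder. Tumors of low Tag signal overlapped the lower normal samples, and those of high Tag signal did not overlap either. For RPS20 the log2 fold change was -0.70 (standard error 0.22, adjusted p = 0.0164 from limma) with 18 iUC arrays and -0.42 (standard error 0.14, adjusted p = 0.025) with 11, and it passed in 2 of the 4 fits without a normal sample in both. RPS20 was read by 8 probe sets that disagreed. One of them averaged 0.20 and -0.49 on the iUC arrays of low and high Tag signal, against 0.75, 2.11, 2.67 and 2.88 in normal bladder, with a log2 fold change of -1.91 (adjusted p = 0.00065 over all probe sets) for the 11 iUC arrays. The other 7 ranged from -0.33 to -0.017.

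RPS10 differed most of the 54 genes between the iUC arrays of high and low Tag signal. It had values from -1.06 to 0.82 (median 0.23) on the iUC arrays of low Tag signal, from -1.25 to -0.67 (median -1.0) on those of high Tag signal, and 0.38, 1.07, 0.62 and 0.25 in normal bladder. Single tumors of low Tag signal lay as high as normal bladder and 1, iUC replicate 12, lay among the arrays of high Tag signal. Its log2 fold change was -0.90 (standard error 0.36, adjusted p = 0.053 from limma) with 18 iUC arrays and -0.46 (standard error 0.28, adjusted p = 0.20) with 11. RPS26, at the exit side of the messenger RNA, had -0.14 (adjusted p = 0.51) and 0.08 (adjusted p = 0.53).

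In people, inherited loss of 1 copy of some ribosomal protein genes causes Diamond-Blackfan anemia, a failure of red cell production. Of the small subunit genes of that list, 7 were measured (RPS7, RPS10, RPS19, RPS26, RPS27, RPS28 and RPS29), and none passed with either set of iUC arrays. Their median log2 fold change was -0.14 with 18 iUC arrays and 0.02 with 11. RPS19, the gene most often affected in that disease, had -0.025 (adjusted p = 0.83) and 0.0069 (adjusted p = 0.96). Of the large subunit genes of the list, 7 were measured (RPL5, RPL8, RPL15, RPL26, RPL27, RPL35 and RPL35A). With 11 iUC arrays RPL5 and RPL26 were lower and RPL8 was higher, while with 18 only RPL26 passed. RPL8, next to the site of peptide bond formation, had values from 0.010 to 0.23 (median 0.12) on the iUC arrays of low Tag signal, from -0.95 to -0.12 (median -0.59) on those of high Tag signal, and -0.024, -0.010, -0.099 and -0.12 in normal bladder. All 11 tumors of low Tag signal were above all 4 normal samples, and RPL8 was the 1 gene of the 54 for which this held (1.85%, against 5.95% of all genes). Its log2 fold change was 0.19 (standard error 0.053, adjusted p = 0.0129 from limma) with 11 iUC arrays and -0.08 (adjusted p = 0.76) with 18.

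RPS13, of the body of the small subunit, separated the groups in the other direction. It had values from -0.25 to 0.079 (median 0.020) on the iUC arrays of low Tag signal, from -1.02 to -0.46 (median -0.85) on those of high Tag signal, and 0.25, 0.24, 0.14 and 0.13 in normal bladder. All 18 tumors were below all 4 normal samples, which held for RPS13 alone of the 54 genes (1.85%, against 4.47% of all genes with 18 iUC arrays and 5.45% with 11). Its log2 fold change was -0.19 (standard error 0.062, adjusted p = 0.0272 from limma) with 11 iUC arrays and -0.48 (standard error 0.20, adjusted p = 0.066) with 18. With 11 iUC arrays RPS13 passed in 2 of the 4 fits without a normal sample, and not without replicate 1 or replicate 2. No ribosomal protein gene was above normal bladder in all 18 tumors, which held for 3.22% of all genes.

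RPL36 had the largest difference of all ribosomal protein genes in both comparisons. It encodes a protein of the large subunit and was read by 1 probe set. It had values from -0.16 to 0.85 (median 0.03) on the iUC arrays of low Tag signal, from -1.23 to -0.015 (median -0.96) on those of high Tag signal, and 0.52, 1.89, 1.67 and 1.17 in normal bladder. Normal bladder replicate 1 lay inside the range of the tumors and the other 3 normal samples lay above it. For RPL36 the log2 fold change was -1.55 (standard error 0.33, adjusted p = 0.0013 from limma) with 18 iUC arrays and -1.13 (standard error 0.22, adjusted p = 0.0013) with 11. With 11 iUC arrays and without normal bladder replicate 2 it was -0.94 (adjusted p = 0.0058), under the 2-fold criterion, and without replicate 1 it was -1.40. Replicate 1 is the only normal sample with the label ending of the tumors. Against it alone the log2 fold change of RPL36 was -0.76 with 18 iUC arrays and -0.34 with 11, both under 2-fold.

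**Figure D4:**
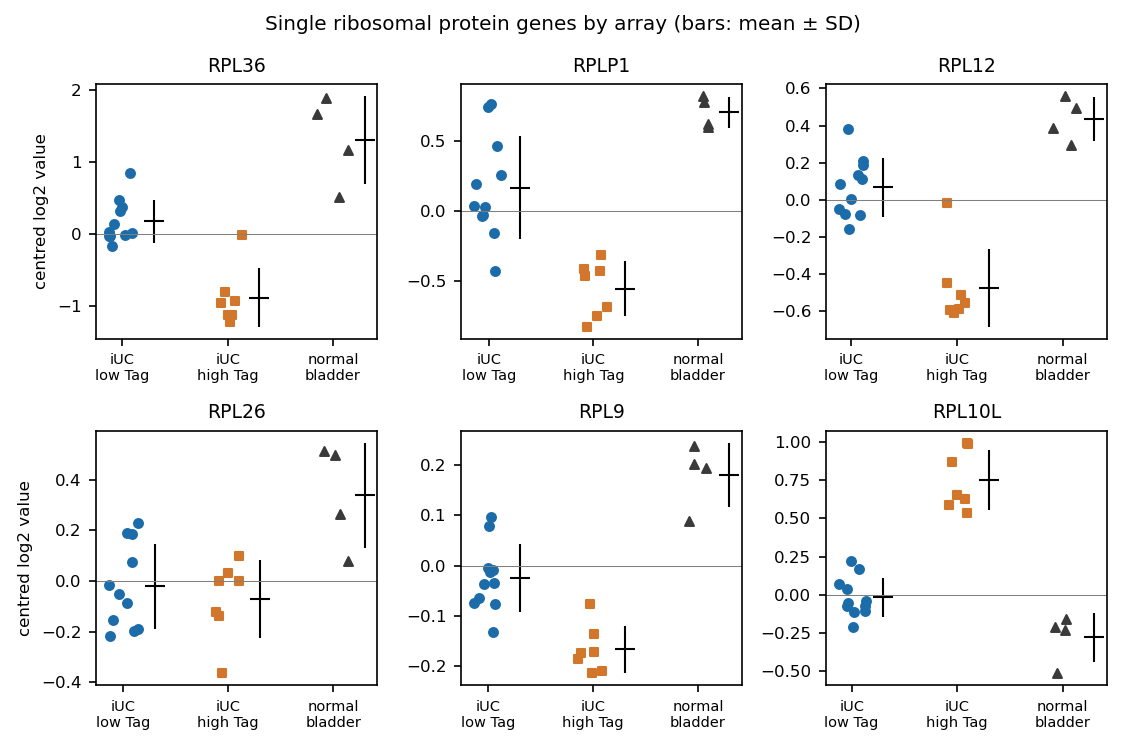
Centred log2 value (y axis) of 6 ribosomal protein genes in each array, with iUC of low Tag signal (11 circles), iUC of high Tag signal (7 squares) and normal bladder (4 triangles) from left to right, and bars for the mean ± SD. RPL26 differs little between the iUC arrays of high and low Tag signal, while RPL36, RPLP1, RPL12 and RPL9 are on average lower and RPL10L is higher in those of high Tag signal.

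RPL6 and RPL9, 2 further proteins of the large subunit, were lower in iUC by less. RPL9 had values from -0.13 to 0.097 (median -0.034) on the iUC arrays of low Tag signal, from -0.21 to -0.077 (median -0.17) on those of high Tag signal, and 0.088, 0.19, 0.24 and 0.20 in normal bladder. The highest tumor just passed normal bladder replicate 1 and all others lay below every normal sample. The log2 fold change of RPL9 was -0.26 (standard error 0.064, adjusted p = 0.0037 from limma) with 18 iUC arrays and -0.21 (standard error 0.053, adjusted p = 0.0081) with 11. Its 3 probe sets differed, at -0.40, -0.22 and 0.01 for the 11 iUC arrays, and only the first passed over all probe sets (adjusted p = 0.0024). The direction of RPL9 turned when the most variable probe set stood for the gene (0.01, adjusted p = 0.90).

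RPL6 was read by 11 probe sets, more than any other of the 54 genes. It had values from -0.31 to 0.41 (median 0.06) on the iUC arrays of low Tag signal, from -0.87 to -0.41 (median -0.70) on those of high Tag signal, and 0.30, 0.40, 0.49 and 0.52 in normal bladder. The log2 fold change was -0.64 (standard error 0.21, adjusted p = 0.0243 from limma) with 18 iUC arrays and -0.35 (standard error 0.12, adjusted p = 0.0327) with 11, and in each comparison it passed in 1 of the 4 fits without a normal sample. Single probe sets of RPL6 ranged from -1.32 to 0.17 for the 11 iUC arrays. RPS18, of the head of the small subunit, had -0.36 (standard error 0.13, adjusted p = 0.0382) with 18 iUC arrays and -0.18 (adjusted p = 0.079) with 11, and passed in 0 of the 4 fits without a normal sample in both. Its 3 probe sets had -0.68, -0.46 and 0.058 with 18 iUC arrays. None of them passed over all probe sets (adjusted p = 0.051, 0.13 and 0.82 from limma).

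RPL7, RPL13A and RPS23 passed only with the 11 iUC arrays, a difference between the comparisons that was not tested. Their log2 fold changes were -0.27 (adjusted p = 0.0328), -0.16 (adjusted p = 0.032) and -0.22 (adjusted p = 0.043). Of the 4 fits without a normal sample, RPL7 and RPL13A passed in 1 each, that without replicate 1, and RPS23 in 0. RPS23 lies at the decoding center of the small subunit, and RPL13A leaves the ribosome of human monocytes under interferon to hold back translation. RPL13A had 0.18, 0.23, 0.20 and 0.23 in normal bladder, and the tumors of low Tag signal lay between -0.11 and 0.18, with the highest just reaching the lowest normal sample.

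Of the variant copies of ribosomal proteins, RPL3L, RPL10L and RPS27L were measured. RPS4X, the usual gene of its protein and not a variant copy, was placed in the same group. RPL10L is a copy of RPL10 without introns that is known from testis in mice and people, and RPL3L replaces RPL3 in skeletal muscle and heart. RPL10L had values from -0.21 to 0.22 (median -0.055) on the iUC arrays of low Tag signal, from 0.53 to 0.99 (median 0.65) on those of high Tag signal, and -0.21, -0.23, -0.51 and -0.16 in normal bladder. The arrays of high Tag signal stood above all others, and the tumors of low Tag signal overlapped normal bladder. Its log2 fold change was 0.56 (standard error 0.21, adjusted p = 0.0409 from limma) with 18 iUC arrays and 0.26 (standard error 0.084, adjusted p = 0.0242) with 11. It passed in 0 of the 4 fits without a normal sample with 18 iUC arrays and in 3 of 4 with 11. With the Tag mean as a covariate RPL10L did not pass. Over the alternatives with 18 iUC arrays its log2 fold change ran from 0.049 to 0.68.

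RPL3L had values from -0.19 to 0.25 (median -0.047) on the iUC arrays of low Tag signal, from 0.18 to 0.48 (median 0.26) on those of high Tag signal, and 0.0060, -0.19, -0.23 and -0.31 in normal bladder. Its 3 probe sets differed by -0.10, 0.21 and 0.87 between the iUC arrays of high and low Tag signal. With 18 iUC arrays none of them passed over all probe sets (adjusted p = 0.17, 0.081 and 0.14 from limma). The log2 fold change of RPL3L was 0.28 (standard error 0.11, adjusted p = 0.0491 from limma) with 18 iUC arrays and 0.15 (adjusted p = 0.13) with 11, and with 18 it passed in 1 of the 4 fits without a normal sample. RPS27L, which p53 switches on in human cells, had -0.65 (adjusted p = 0.074) and -0.27 (adjusted p = 0.082). RPS4X had -0.60 (adjusted p = 0.10) and -0.34 (adjusted p = 0.39), with -0.40, 0.82, 0.77 and 1.03 in normal bladder, where replicate 1 lay below the other normal samples and among the tumors.

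RPL24, a bridge from the large to the small subunit, was the third gene higher in iUC with 18 arrays, and its 2 probe sets moved in opposite directions. The mean of both had a log2 fold change of 0.38 (standard error 0.14, adjusted p = 0.0351 from limma) with 18 iUC arrays and 0.22 (adjusted p = 0.085) with 11, and with 18 it passed in 1 of the 4 fits without a normal sample. Both carried RPL24 as their only symbol. The probe set not named for shared matches averaged -0.091 and 1.76 on the iUC arrays of low and high Tag signal, against -0.50, -0.82, -0.82 and -1.01 in normal bladder. The probe set named for shared matches averaged 0.03 and -1.01, against 0.33, 0.36, 0.27 and 0.18 in normal bladder. For the 11 iUC arrays the first had a log2 fold change of 0.70 (adjusted p = 0.0060 over all probe sets) and the second -0.25 (adjusted p = 0.052).

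Such disagreement was not confined to RPL24. Of the 28 genes with several probe sets, 12 had probe sets on both sides of 0 between the iUC arrays of high and low Tag signal, and for 6 the probe sets spanned more than 0.5 in the log2 fold change of the 11 iUC arrays. The same was not counted over the 8254 genes of the array with several probe sets, so these counts have no background. Ribosomal protein genes have many near-identical processed copies in mammalian genomes, so probes can read more than 1 of them. The part of such copies in the disagreement was not tested. Of the 111 probe sets, 74 have a name ending in _s_at, _x_at or _a_at, by which Affymetrix marks probes that match several transcripts. On the arrays of high Tag signal 69 of these 74 averaged lower than on the other iUC arrays, with a median difference of -0.80, and 25 of the 37 others did, with a median of -0.27. Against normal bladder the 2 kinds had alike medians for the 11 iUC arrays, at -0.10 for both. Over all probe sets, 22 of the 111 were lower (19.8%, against 17.4% of the probe sets of the array) and 4 higher (3.6%, against 18%) with the 11 iUC arrays, and 19 were lower (17.1%, against 19.4%) and 3 higher (2.7%, against 15.8%) with the 18.

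**Figure D5:**
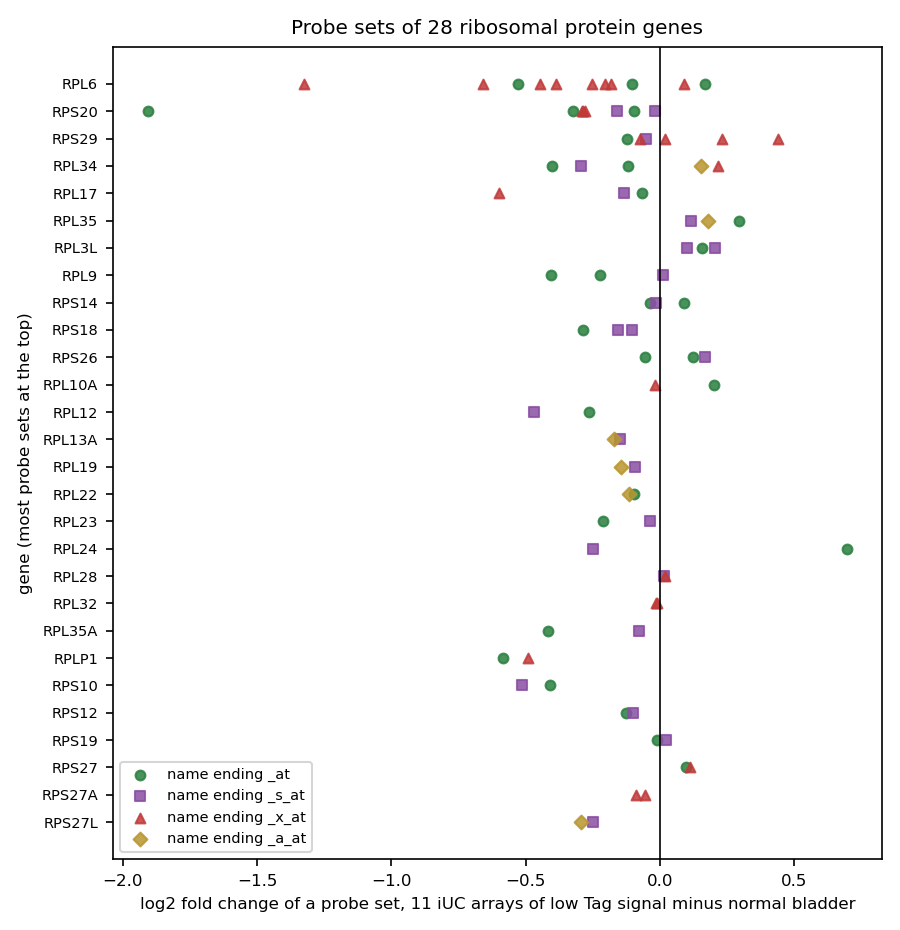
Log2 fold change (11 iUC arrays of low Tag signal minus normal bladder, x axis) of each probe set of the 28 ribosomal protein genes with several probe sets (rows), with the marker showing the ending of the probe set's name. The probe sets of RPS20 run from -1.91 to -0.017 and those of RPL6 from -1.32 to 0.17, while those of RPL24 lie at -0.25 and 0.70.

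The other genes of protein synthesis were counted in the same way, at an adjusted p of 0.05 or below. Over all genes 18.2% were higher and 17.5% lower with 18 iUC arrays, and 21.1% higher and 16.6% lower with 11. Ribosomal protein paralogs and fusion genes outside the rule of symbols had 0 higher and 4 lower of 8 with 18 iUC arrays, and 0 and 3 with 11. FAU, which encodes RPS30 joined to a ubiquitin-like protein, had a log2 fold change of -0.57 (adjusted p = 0.0344 from limma) with 18 and -0.28 (adjusted p = 0.037) with 11. RSL24D1, a relative of RPL24 that helps to assemble the large subunit, had -1.09 (adjusted p = 0.022) and -0.66 (adjusted p = 0.0371). Initiation factors, which bring the small subunit to messenger RNA, had 0 higher and 16 lower of 39 with 18 iUC arrays (41% lower, against 17.5% of all genes), and 2 higher and 13 lower with 11 (33.3%, against 16.6%). EIF1B, a copy of the start codon factor EIF1, had values from -0.30 to 0.46 on the iUC arrays of low Tag signal and 1.52, 1.79, 1.97 and 2.01 in normal bladder, without overlap, and its log2 fold change was -1.81 with 11 iUC arrays and -2.21 with 18. EIF3J, a loosely bound subunit of factor 3, had -1.49 and -1.85.

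Among elongation factors 0 were higher and 2 lower of 10 with 18 iUC arrays, and 2 were higher and 2 lower with 11. EEF1A1 and EEF2, whose messenger RNAs carry the same 5′ tract as those of ribosomal proteins, had log2 fold changes of 0.08 (adjusted p = 0.35 from limma) and 0.43 (adjusted p = 0.027) with 11 iUC arrays and of -0.14 (adjusted p = 0.50) and 0.0030 (adjusted p = 0.99) with 18. Of 11 other genes with that tract or partners of the ribosome, 4 were lower and 1 higher in both comparisons. NAP1L1, a histone chaperone, had -1.77 with 18 iUC arrays and -1.31 with 11, and VIM, the intermediate filament of mesenchymal cells, had -2.16 and -2.05. TPT1 and RACK1, 2 others of the list, had -0.39 (adjusted p = 0.18) and -0.54 (adjusted p = 0.092) with 18 and -0.055 (adjusted p = 0.70) and -0.17 (adjusted p = 0.17) with 11.

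Ribosome biogenesis genes had 5 higher and 23 lower of 65 with 18 iUC arrays, which was 7.7% higher, against 18.2% of all genes, and 35.4% lower, against 17.5%. With 11 iUC arrays 7 were higher (10.8%, against 21.1%) and 15 lower (23.1%, against 16.6%). TAF1D, part of the factor that starts RNA polymerase I, had -2.27 and -1.58, and SDAD1 had -2.13 and -1.63. Mitochondrial ribosomal proteins, which serve the separate ribosome of mitochondria, had 0 higher and 33 lower of 73 with 18 iUC arrays (45.2% lower, against 17.5% of all genes) and 1 higher and 31 lower with 11 (42.5%, against 16.6%). Their median log2 fold change was -0.68 with 18 and -0.33 with 11, where that of the cytosolic ribosomal protein genes was -0.37 and -0.11. MRPL52 had values from -0.37 to 0.36 on the iUC arrays of low Tag signal and 1.24, 1.17, 1.38 and 1.53 in normal bladder, without overlap, and its log2 fold change was -1.70 with 18 iUC arrays and -1.29 with 11. MRPL35 had -1.59 and -1.14. The difference between the cytosolic and the mitochondrial set was not tested.

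Aminoacyl-tRNA synthetases of the cytosol had 1 higher and 4 lower of 20 with 18 iUC arrays, and 5 higher and 4 lower with 11. WARS1, the tryptophan enzyme, which interferon induces, had a log2 fold change of 1.18 (adjusted p = 0.0115 from limma) with 18 and 1.56 (adjusted p = 0.00060) with 11, and LARS1, the leucine enzyme, had -1.47 and -1.11. Of 22 regulators of ribosomal protein synthesis 3 were higher and 1 lower with 18 iUC arrays, and 7 higher and 1 lower with 11. LARP1 binds the 5′ tract of ribosomal protein messenger RNAs under mTOR. It was also the 1 higher gene among the 11 genes with that tract or partners of the ribosome. In normal bladder it had 0.22, -0.99, -1.39 and -1.35, where replicate 1 lay among the tumors. LARP1 had log2 fold changes of 0.96 (adjusted p = 0.0146) with 18 iUC arrays and 1.25 (adjusted p = 0.0033) with 11. EIF2AK3, the kinase PERK of the stressed endoplasmic reticulum, had 1.06 and 1.21. MYC, which drives ribosomal protein genes in many cells, had -0.78 (adjusted p = 0.14) and -0.33 (adjusted p = 0.48). In these lists, too, averages were lower on the arrays of high Tag signal: for 37 of the 39 initiation factors, 56 of the 65 biogenesis genes, 67 of the 73 mitochondrial ribosomal proteins and all 20 synthetases.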

How the data were processed

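Total RNA of 18 iUC and 4 normal bladder samples was hybridized to Affymetrix Canine 2.0 arrays. The authors processed the arrays with GeneSpring GX 12.6.1 and deposited log2 values of 43035 probe sets, each centred on its median over the 22 arrays (largest median 1e-06). The summarisation, the normalization and the genome build were not given in the sources used here. Centred values keep no level, so no filter on low expression was possible, and the number of arrays limits the precision. The 111 Affymetrix controls were set aside, and 29254 of 42924 probe sets had 1 symbol in the platform's annotation, 439 several and 13231 none. A gene's value is the mean of its probe sets (15115 genes, of which 8254 had several). For 52 of the 54 ribosomal protein genes the Entrez number was found in a RefSeq gene table, which changed 0 symbols.

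Tests between the groups used limma 3.58.1 (lmFit and eBayes in R 4.3.3, no covariate, all arrays weighted alike) with Benjamini-Hochberg adjustment, following the methods' moderated test and fold change of 2. The comparison without the 7 arrays of a Tag mean of 0.2 or above was planned as an alternative, and its own alternatives were added after the data were seen. The members and gene lists were chosen with earlier results of these data known. Genes were named by a rule: up to 8 falls and 8 rises that passed, and the highest and lowest of each role group. The rule also took the variant copies with RPS4X, and up to 2 genes a list and direction at 2-fold. RPL7, RPL8, RPL13A, RPLP0, RPS13, RPS19, RPS23, FAU, EEF1A1, EEF2, TPT1, RACK1, LARP1 and MYC, and genes named for their spread or for the difference between the arrays of high and low Tag signal, were named after their values were seen. Alternatives were other scalings, weights, covariates, blocks, probe sets and left-out normal samples. On simulated data of 15115 genes, 18 against 4 arrays recovered 32% of changes of 0.5 (log2), 66% of 1, 84% of 1.5 and 100% of 2, with 3 false calls. Simulations of 11 against 4 recovered 36%, 82%, 88% and 100%, with 9. The simulated noise was independent between genes and arrays, with 50 genes changed at each size. It held no shared shift of the 7 arrays of high Tag signal and no label ending. These rates and false calls therefore do not measure power or error on the real arrays. Probe and gene sequences were not used here.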

Additional observations from a re-analysis of the deposited data

How the results depend on the processing

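The median SD of the ribosomal protein genes was 0.41 across the 18 iUC arrays and 0.10 across the 4 normal samples, of which replicates 3 and 4 correlated at 0.93 over all probe sets and the next pair at 0.76. With all 18 iUC arrays the count of ribosomal protein genes lower at 2-fold or more was 1 (1.85%, against 8.64% of all genes). It was 0 with quantile normalization, with the Tag mean as a covariate and with the replicate block, and 4 with the most variable probe set of each gene. The count of higher genes was 0 (against 3.68% of all genes), and 1 from probe sets not named for shared matches and from the most variable probe set. The share of all genes at 2-fold in these alternatives is not given, so these counts have no background there. The 11 genes at an adjusted p of 0.05 or below became 1 with quantile normalization, 19 with array weights and 4 with the Tag covariate. They became 5 to 12 without 1 normal sample, 5 with normal replicates 3 and 4 averaged, and 22 by the methods' unpaired test without adjustment. Of all genes 35.7% passed in the main fit, 13.2% with quantile normalization, 57% with array weights and 34.7% with the Tag covariate. The share was 19.6% to 36.7% without 1 normal sample and 19.6% with replicates 3 and 4 averaged. By the unpaired test without adjustment it was 48.7%. The median log2 fold change was -0.37, and 0.074 with the Tag covariate, with 16 of 54 genes below 0. The 47 translation genes of the other lists called at 2-fold became 10 with quantile normalization, 22 without the arrays of high Tag signal and 17 with the Tag covariate. They became 31 from probe sets not named for shared matches and 72 from the most variable ones. No share of all genes at 2-fold is given beside the counts of translation genes, so they have no background. RPL35 turned to 0.33 from its probe set not named for shared matches. RPL8 turned to 0.19 without the arrays of high Tag signal and 0.35 with the Tag covariate.

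The replicate numbers of the titles did not pair the samples (correlations of same-numbered deviations -0.17, 0.06, -0.05 and 0.13). With the replicate block 0 of the 54 genes passed (against 4.15% of all genes), the median was -0.54, and 23 translation genes were called. The fold changes of that fit rest on iUC replicates 1 to 4, since the other iUC samples have no normal sample of the same number. Of these, replicates 3 and 4 are arrays of high Tag signal.

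With the 11 iUC arrays of low Tag signal, all alternatives were chosen after seeing the data. The count of genes lower at 2-fold was 1 (against 5.96% of all genes). It became 0 with quantile normalization or 75th percentile scaling, 0 to 1 without 1 normal sample and 3 with the most variable probe sets. The share of all genes at 2-fold in these alternatives is not given. The 14 genes at an adjusted p of 0.05 or below became 5 to 17 without 1 normal sample, 1 with quantile normalization and 7 at the 75th percentile. They became 9 from probe sets not named for shared matches, 22 with array weights and 5 with replicates 3 and 4 averaged. Of all genes 37.7% passed, and 24.4% to 43.9% without 1 normal sample, 14.1% with quantile normalization and 49.4% at the 75th percentile. From probe sets not named for shared matches it was 35.8% of 12185 genes. With array weights it was 53.5%, and with replicates 3 and 4 averaged 24.8%. The median of -0.11 became 0.034 at the 75th percentile. RPL9 turned to 0.012 with its most variable probe set. The cause of these changes was not tested. For the 28 ribosomal protein genes given with a fold change, 76 of 467 values with 18 iUC arrays and 75 of 327 with 11 kept their direction and lost their call, and 20 and 15 gained one.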
